A study of Homo sapiens with 6 samples.

Results

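Cation-chloride cotransporters of the SLC12 family and the WNK, SPAK and OSR1 kinases that regulate them were examined as 8 genes, SLC12A2, SLC12A4, SLC12A7, SLC12A9, WNK1, WNK4, OXSR1 and STK39. They were taken by symbol from a written list, as 8 of the 35810 genes matched in the data, and all 8 were among the 13737 genes tested. SLC12A2 is labelled in the paper's plot of differentially expressed genes, so its choice was not independent of these data. The RNA was polyadenylated RNA of SPT5-AID cells, which are DLD-1 cells, a line of human colorectal adenocarcinoma, with an auxin-inducible degron on the elongation factor SPT5. The 3 shARMC5 replicates expressed a lentiviral shRNA against ARMC5, a BTB protein studied as an adaptor of the ubiquitin ligase scaffold CUL3, and the 3 shNT replicates a nontargeting shRNA. All 6 libraries therefore share the SPT5-AID genotype, the shRNA vector and its puromycin selection. The labels name no auxin, and which ARMC5 shRNA construct was used for these libraries was not given in the sources used here. The comparison asks how gene expression differed after ARMC5 knockdown. The paper defines its N as biological replicates or genes, without describing separate cultures for these libraries. P values measure the spread between the libraries as they are.

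SLC12 cotransporters couple the movement of chloride across the plasma membrane to that of sodium or potassium, and with it set cell volume and intracellular chloride. The sodium-potassium-chloride cotransporter loads chloride into the cell and supplies it to apical channels in secreting intestinal epithelium, while the potassium-chloride cotransporters let it leave. WNK kinases phosphorylate and activate SPAK and OSR1, which in turn phosphorylate the cotransporters, activating the former kind and inhibiting the latter. These steps act on protein, and the values below are levels of mRNA.

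The authors assigned 26201112 to 40866478 reads of each library to transcripts. ARMC5, the targeted gene, had 10.8, 12.0 and 12.9 TMM-normalized CPM (reads per 1000000 on genes) in shARMC5 replicates 1, 2 and 3, and 23.0, 25.9 and 26.7 CPM in the shNT replicates, a ratio of 0.471 (edgeR's quasi-likelihood test, adjusted P = 5.32e-07). Of 8 colorectal epithelial markers, 7 were among the matched genes and 6 were tested. At an adjusted P under 0.1, 3 were called (50% of those tested, against 7.75% of all tested genes). KRT8 (log2 fold change 0.18) and KRT18 (0.25) were higher and VIL1 (-1.30) lower in shARMC5 cells, while EPCAM (0.03), CDH1 (0.001) and CDX2 (0.01) were not called. CDX1 was at 0 in every library, whereas EPCAM had 924 to 981 CPM. The summed TPM (deposited transcript levels, scaled by length and to 1000000 in each library) of the colorectal epithelial markers was 7777 to 8070 in shARMC5 and 6838 to 7319 in shNT cells. Most of this sum was KRT8, with means of 3580 TPM in shARMC5 and 3209 TPM in shNT cells, and KRT18, with 3064 and 2614 TPM. The 8 markers of leukocytes, endothelium and fibroblasts summed to 0.799 to 2.12 TPM in shARMC5 and 0.746 to 1.94 TPM in shNT cells, with CD3E and COL3A1 at 0. In bulk RNA, fewer cells of a type and less RNA per cell cannot be told apart. The part of the epithelial markers in the results below was not tested.

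Of all tested genes, 7.75% were called in either direction, 4.44% higher and 3.3% lower in shARMC5 cells. Among the 8 genes 3 were called (37.5%), 2 lower and 1 higher, a share above that of all tested genes in a list whose choice was made with results known. SLC12A2 and SLC12A7 fell and SLC12A4 rose. SLC12A9, WNK1, WNK4, OXSR1 and STK39 were not called, with a smallest adjusted P of 0.299. The median log2 fold change of the 8 genes was -0.09, with 5 negative and 3 positive values, against -0.00142 over all tested genes. The groups did not overlap in CPM for 5 of the 8 genes, against 23.4% of all tested genes.

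**Figure D1:**
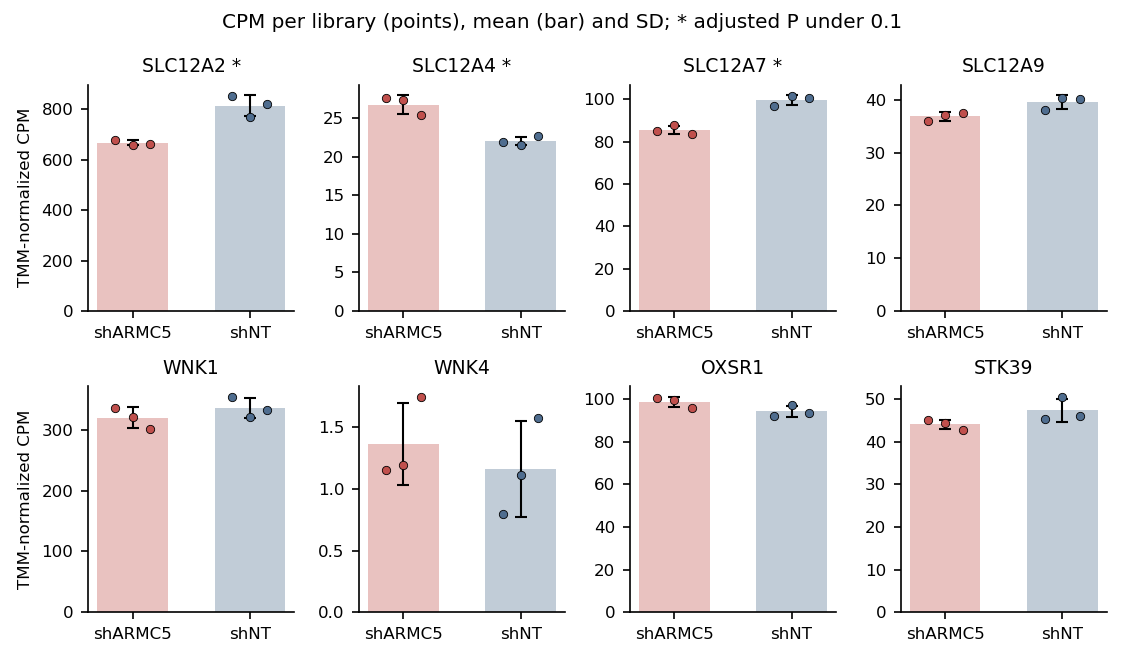
TMM-normalized CPM of the 8 genes in shARMC5 and shNT cells, with each replicate as a point, the mean of 3 replicates as a bar and the SD as a whisker, and an asterisk where the adjusted P was under 0.1. SLC12A2 and SLC12A7 lie lower and SLC12A4 higher in all 3 shARMC5 replicates, and WNK1, WNK4 and OXSR1 overlap between the groups.

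SLC12A2, which encodes the sodium-potassium-chloride cotransporter NKCC1 (ENSG00000064651, chr5:128083766-128189677, plus strand, GRCh38), was the most abundant of the 8 genes. Its level was 679, 660 and 664 CPM in shARMC5 replicates 1, 2 and 3 and 852, 771 and 823 CPM in shNT replicates 1, 2 and 3. Every shARMC5 replicate lay below every shNT replicate, and the spread was wider in shNT than in shARMC5 cells. The means were 668 ± 9.97 and 815 ± 40.9 CPM (SD, n = 3 each), a ratio of 0.819. On the log2 scale the difference was -0.29 (standard error, SE, 0.03, adjusted P = 7.03e-05 by edgeR), and SLC12A2 ranked 52 among all tested genes by P value. It rested on 16760 to 27861 reads per library.

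SLC12A7, which encodes the potassium-chloride cotransporter KCC4 (ENSG00000113504, chr5:1050384-1112063, minus strand), was lower as well. It had 84.9, 87.7 and 83.8 CPM in the shARMC5 replicates and 96.9, 101 and 100.4 CPM in the shNT replicates, without overlap. The means were 85.5 ± 2.01 and 99.5 ± 2.37 CPM (SD, n = 3 each). This is a log2 fold change of -0.22 (SE 0.04, edgeR adjusted P = 0.00125), on 2114 to 3460 reads per library. So the loader of chloride and this exporter were both lower at the level of mRNA.

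SLC12A4, which encodes the widely expressed potassium-chloride cotransporter KCC1 (ENSG00000124067, chr16:67943474-67969601, minus strand), moved the other way. Its level was 27.5, 27.3 and 25.4 CPM in the shARMC5 replicates and 21.9, 21.5 and 22.6 CPM in the shNT replicates. All shARMC5 replicates were higher, with means of 26.7 ± 1.20 and 22.0 ± 0.548 CPM (SD, n = 3 each). The rise on the log2 scale was 0.28 (SE 0.06, edgeR adjusted P = 0.0114), on 634 to 1079 reads per library. It was not called with an offset for the average transcript length in edgeR (0.33, adjusted P = 0.197) or when only transcripts of the same version and length were matched (0.21, adjusted P = 0.246). SLC12A4 shares 658 bases with LCAT on the same strand. LCAT had 1.30 ± 0.355 CPM in shARMC5 and 0.828 ± 0.0551 CPM in shNT cells (SD, n = 3 each) and was not called (edgeR adjusted P = 0.284). Its part in the value of SLC12A4 was not tested.

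The sequences before the start sites of the called genes that fell are shown for their base composition beside these changes. They are the 250 bases before the RefSeq start of each gene, in GRCh38.p14 and on the strand of the gene, with the GC box letters GGGCGG or their reverse complement CCGCCC in capitals. SLC12A2 lies at chr5:128083516-128083765 on the plus strand and SLC12A7 at chr5:1112064-1112313 on the minus strand.
SLC12A2: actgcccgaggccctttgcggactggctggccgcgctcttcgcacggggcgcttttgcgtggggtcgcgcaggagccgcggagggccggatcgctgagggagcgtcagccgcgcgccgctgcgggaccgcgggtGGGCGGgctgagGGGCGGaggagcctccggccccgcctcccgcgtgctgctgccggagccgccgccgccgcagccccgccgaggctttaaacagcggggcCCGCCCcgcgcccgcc
SLC12A7: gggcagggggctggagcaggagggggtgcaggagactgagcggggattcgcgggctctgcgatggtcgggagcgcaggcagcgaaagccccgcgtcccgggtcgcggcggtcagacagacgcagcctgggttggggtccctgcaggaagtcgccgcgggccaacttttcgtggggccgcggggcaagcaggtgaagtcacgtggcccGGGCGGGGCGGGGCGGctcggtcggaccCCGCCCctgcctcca

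The SLC12A2 window had 79.6% G and C and 3 GC boxes, and the SLC12A7 window had 74.4% and 4, 3 of which overlap each other by a base. The window of SLC12A4, which rose, had 74% and 8, but RefSeq lists 4 starts for this gene and part of the window is transcribed from another of them. Over 34943 such windows the median was 58% G and C, and 42.5% held at least 1 GC box on either strand. No comparison with the windows of tested genes alone was made. A window was found for 7 of the 8 genes, WNK4 being the exception, and 6 of the 7 held a GC box, OXSR1 being the exception. The TATA box letters TATAAA, on either strand, were in 10.8% of all windows and in 0 of the 7. The letters TGACG, the core of the cyclic AMP response element, were in 21.2% of all windows and in 2 of the 7. These matches describe letters, and GC boxes were present in windows of genes that fell, rose or were not called.

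SLC12A9, an orphan member of the family described as a cotransporter-interacting protein (ENSG00000146828, chr7:100826820-100867010, plus strand), had 35.9, 37.2 and 37.6 CPM in the shARMC5 replicates. The shNT replicates had 38.0, 40.4 and 40.3 CPM. The groups lay close together without overlap, with means of 36.9 ± 0.863 and 39.6 ± 1.33 CPM (SD, n = 3 each), but in TPM they overlapped. The log2 fold change was -0.10 (SE 0.05, edgeR adjusted P = 0.324). SLC12A9 overlaps EPHB4, which had 102 to 111 CPM, over 704 bases on the opposite strand, and the library kit does not mark strand, so reads there cannot be told apart.

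WNK1, the chloride-sensing kinase at the head of the cascade (ENSG00000060237, chr12:752579-911452, plus strand), was the most abundant kinase of the group. It had 336, 320 and 301 CPM in the shARMC5 replicates and 354, 321 and 332 CPM in the shNT replicates. The groups overlapped, with means of 319 ± 17.4 and 336 ± 16.6 CPM (SD, n = 3 each). The log2 fold change was -0.07 (SE 0.05, edgeR adjusted P = 0.498). It ranged from -0.11 to -0.03 with each library left out, and it turned to 0.000553 with the length offset in edgeR.

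WNK4, a kinase of the same family best known from the distal nephron (ENSG00000126562, chr17:42780610-42797066, plus strand), was covered by only 26 to 47 reads per library. Its level was 1.15, 1.19 and 1.74 CPM in the shARMC5 replicates and 0.795, 1.11 and 1.57 CPM in the shNT replicates. The ranges overlapped over most of their width. The log2 fold change of 0.23 had a SE of 0.31 (edgeR adjusted P = 0.76), so the difference was smaller than its error. It was 0.02 without shNT replicate 1 or without shARMC5 replicate 3, and 0.51 without shNT replicate 3, and it was called in none of the alternatives that gave an adjusted P. WNK4 overlaps COA3, which had 24.2 to 26.4 CPM, over 1920 bases on the opposite strand.

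OXSR1 encodes the kinase OSR1 (ENSG00000172939, chr3:38165089-38255484, plus strand), and STK39 the related kinase SPAK (ENSG00000198648, chr2:167954020-168247595, minus strand). OXSR1 had 100.4, 99.5 and 95.7 CPM in the shARMC5 replicates and 92.1, 97.1 and 93.5 CPM in the shNT replicates. The groups overlapped, and the log2 fold change was 0.06 (SE 0.04, edgeR adjusted P = 0.358). STK39 had 45.0, 44.3 and 42.8 CPM in the shARMC5 replicates and 45.4, 50.5 and 46.0 CPM in the shNT replicates. Its groups did not overlap, though the nearest replicates differed by less than the spread within shNT cells, and the log2 fold change was -0.10 (SE 0.05, edgeR adjusted P = 0.299). Without shNT replicate 2, the highest, it was -0.05 (edgeR adjusted P = 0.646).

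**Figure D2:**
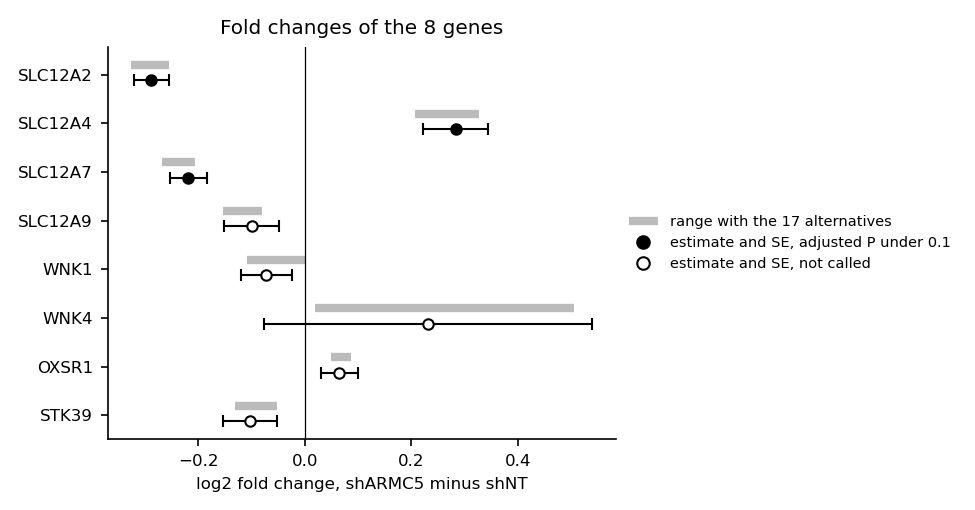
Log2 fold changes of the 8 genes, shARMC5 minus shNT, with the SE of edgeR's fit as whiskers, filled points where the adjusted P was under 0.1, and a grey bar for the range over 17 alternative settings. The bar of WNK1 reaches 0 and those of the other 7 genes, called or not, lie wholly on the side of 0 of their estimate.

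Compared per length, SLC12A2 had the highest mean level over the 6 libraries, 198 TPM, followed by WNK1 with 63.0 TPM, OXSR1 with 33.0 TPM, SLC12A7 with 27.9 TPM, STK39 with 23.0 TPM, SLC12A9 with 19.7 TPM, SLC12A4 with 12.5 TPM and WNK4 with 0.762 TPM. The ranges of OXSR1 and SLC12A7 overlapped, and OXSR1 was higher in 5 of the 6 libraries. The ranges of SLC12A7 and STK39, and those of STK39 and SLC12A9, overlapped as well, although the order held within each of the 6 libraries. The other neighbours in this order did not overlap. SLC12A2 alone made up 50.2%, 49.5% and 49.5% of the summed TPM of the 8 genes in the shARMC5 replicates and 55.5%, 53.3% and 55.2% in the shNT replicates.

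**Figure D3:**
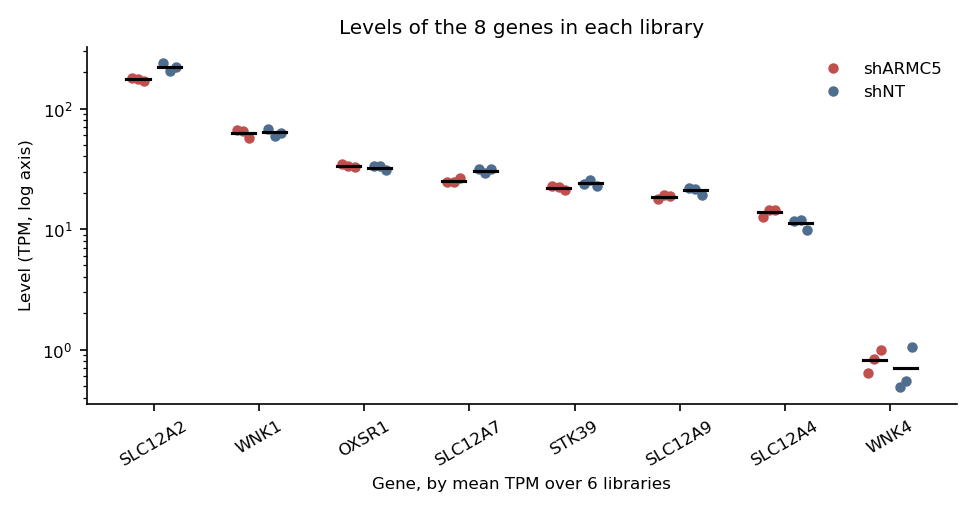
Levels of the 8 genes in TPM on a log axis, ordered by their mean over 6 libraries, with each replicate as a point and the group mean as a line. SLC12A2 stands above all others at 168 to 238 TPM, and WNK4 below all others at 0.485 to 1.06 TPM.

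The balance between chloride loading and export was described at the level of mRNA by the ratio of SLC12A2 to the sum of SLC12A4 and SLC12A7 in TPM. It was 4.89, 4.52 and 4.11 in the shARMC5 replicates and 5.50, 5.06 and 5.31 in the shNT replicates. The groups did not overlap, with means of 4.50 ± 0.389 and 5.29 ± 0.223 (SD, n = 3 each), a log2 difference of -0.23. An exact permutation test (two-sided) gave P = 0.1. This is the smallest P that this test can give with 3 libraries in each group, so it cannot reach 0.05. The ratio is made of the genes called above and adds no independent evidence.

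The ratio of STK39 to OXSR1, kinases that act at the same step, was 0.649, 0.672 and 0.650 in the shARMC5 replicates and 0.710, 0.767 and 0.747 in the shNT replicates. Again the groups did not overlap, with means of 0.657 ± 0.0129 and 0.741 ± 0.0291 (SD, n = 3 each), a log2 difference of -0.17 (two-sided exact permutation P = 0.1). Neither gene was called on its own. The 2 ratios formed 1 family, and the Benjamini-Hochberg adjusted P of each was also 0.1 (exact permutation test).

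The reads of each gene were divided by salmon among its annotated transcripts. Of 79 transcripts of the 8 genes 35 were tested, and 0 were called with edgeR's test over 51892 transcripts, in which 0.00771% were called. An unadjusted P under 0.05 was seen for 4 of the 35, 3 of SLC12A2 and 1 of SLC12A7, and for 2493 of all tested transcripts, and the smallest adjusted P of the 35 was 0.202. Other tools were not run on transcripts.

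For SLC12A2 its longest coding transcript, ENST00000262461 of 6874 bases, held 77.4% ± 2.03 of the TPM of the gene in shARMC5 and 73.3% ± 1.80 in shNT cells (SD, n = 3 each). It had 139, 133 and 134 TPM in the shARMC5 replicates and 175, 154 and 156 TPM in the shNT replicates, which do not overlap (log2 fold change -0.24, SE 0.03, edgeR adjusted P = 0.202). ENST00000628403 had 12.3 to 20.6 TPM in shARMC5 and 24.6 to 27.9 TPM in shNT cells, and ENST00000343225 had 15.1 to 20.9 TPM and 21.5 to 28.0 TPM. All 3 transcripts over 10% of the gene thus lay lower in every shARMC5 replicate. The coding exon that tells NKCC1 splice forms apart, present in NKCC1a and skipped in NKCC1b, spans 48 bases at chr5:128177105-128177152 on the plus strand of GRCh38 and is shown because the share of transcripts with it could be followed.
SLC12A2 alternative exon: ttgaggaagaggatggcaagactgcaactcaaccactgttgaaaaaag

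Among the annotated transcripts that span this place, those with the exon held 88.3%, 91.2% and 89.2% of TPM in the shARMC5 replicates and 87.9%, 89.3% and 86.7% in the shNT replicates. The shares overlapped (two-sided exact permutation P = 0.3, n = 3 each). The form with the exon was therefore the main one in both groups.

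SLC12A7 was carried by the coding transcript ENST00000264930, with 90.4% ± 8.56 of its TPM in shARMC5 and 87.0% ± 6.45 in shNT cells (SD, n = 3 each). This transcript had 21.3 to 23.8 TPM in shARMC5 and 25.7 to 27.2 TPM in shNT cells, without overlap (log2 fold change -0.21, SE 0.05, edgeR adjusted P = 0.509). SLC12A4 differed from both. Its coding transcripts together held 16.2% to 45.6% of its TPM over the 6 libraries, and the rest fell on transcripts annotated as retained intron, as subject to nonsense-mediated decay, or without a defined coding sequence. The coding transcripts of SLC12A4 had 5.17, 4.86 and 2.35 TPM in the shARMC5 replicates and 3.26, 2.35 and 4.49 TPM in the shNT replicates. These overlap between the groups, and the main coding transcript ENST00000316341 differed by -0.01 on the log2 scale (SE 0.21, edgeR unadjusted P = 0.981). The largest of the others were ENST00000572037, annotated as subject to nonsense-mediated decay, with 22.5% ± 6.89 of the TPM of the gene in shARMC5 and 24.7% ± 6.63 in shNT cells (SD, n = 3 each), and ENST00000576462, with a retained intron, with 16.3% ± 5.32 and 17.7% ± 3.64. ENST00000570802, also with a retained intron, held 10.5% ± 1.83 and 8.08% ± 3.98. No single transcript of SLC12A4 was called, with 5 of its 18 transcripts tested.

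ENST00000535572, a coding transcript of 9886 bases, held 49.5% ± 1.04 of the TPM of WNK1 in shARMC5 and 54.9% ± 0.711 in shNT cells (SD, n = 3 each), and ENST00000315939 held 20.5% ± 2.20 and 19.6% ± 1.71. Short coding fragments followed, with 8.77% ± 1.75 and 14.7% ± 1.47 for ENST00000545285. Transcripts of WNK1 that are not annotated as coding held 12.1% ± 1.68 in shARMC5 and 5.09% ± 2.17 in shNT cells, without overlap. They rested on 31.5 to 116 reads per library, and on different transcripts in different replicates. ENST00000540885 had 40.7, 0 and 96.3 reads in shARMC5 replicates 1, 2 and 3 and 0 in every shNT replicate. ENST00000540360 had 20.3, 73.9 and 0 reads in the shARMC5 replicates and 0, 20.9 and 36.7 in the shNT replicates. The split of WNK1 by annotated type was looked at after the transcript values were seen and was not tested. Among the annotated WNK1 transcripts that span it, the exon of 459 bases at chr12:879573-880031 was in 26.2% ± 2.12 of TPM in shARMC5 and 22.4% ± 2.17 in shNT cells (two-sided exact permutation P = 0.2, n = 3 each). The exon of 279 bases at chr12:880721-880999 was in 29.6% ± 2.53 and 26.7% ± 1.26 (exact P = 0.2), and the exon of 1239 bases at chr12:867866-869104, known from nervous tissue, in 1.13% ± 0.789 and 1.01% ± 0.319 (exact P = 0.9). The shares of all 3 exons overlapped between the groups. ENST00000311806 held 92.6% to 96.5% of OXSR1 and ENST00000355999 held at least 97.5% of STK39 over the 6 libraries. ENST00000354161 held 50.4% ± 1.51 and 44.4% ± 2.90 of SLC12A9 in shARMC5 and shNT cells, with ENST00000475687 and ENST00000467972 at 8.81% to 11.5% in the group means. WNK4 was divided between ENST00000592072, with a retained intron, at 48.7% ± 22.4 and 51.6% ± 9.64, and the coding ENST00000246914, at 37.8% ± 2.79 and 30.9% ± 6.57, on few reads. Its transcripts ENST00000591448 and ENST00000592669 were at 0 in 5 and 4 of the 6 libraries.

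**Figure D4:**
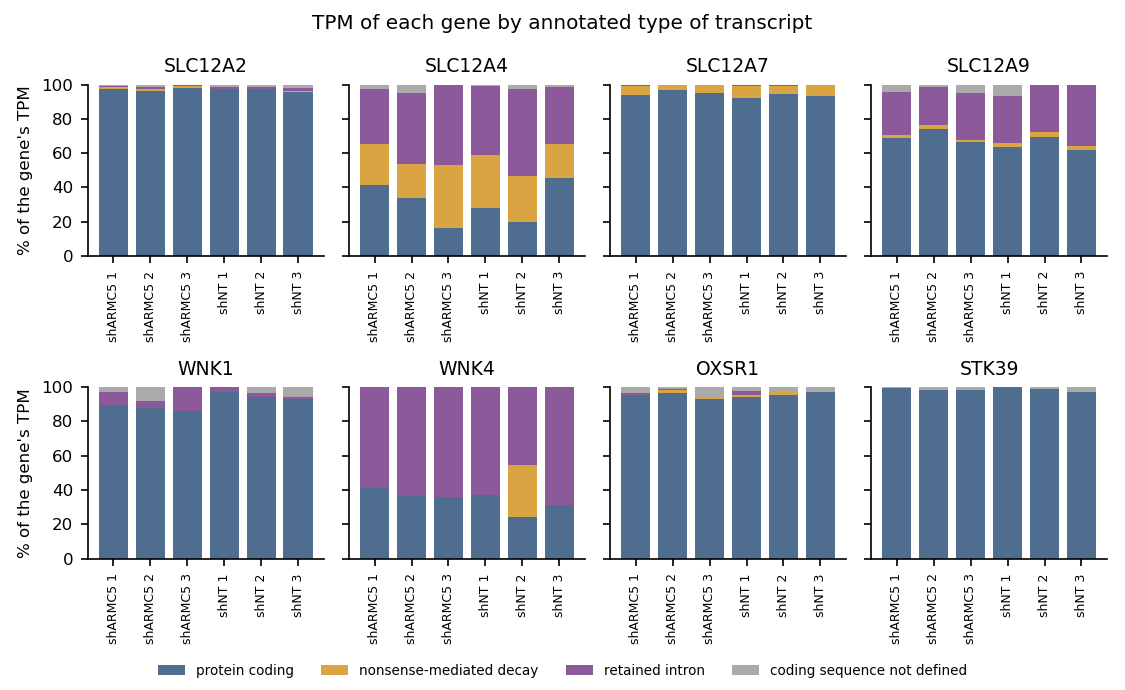
Share of the TPM of each gene in percent, by annotated type of transcript, with 1 bar for each of the 6 libraries. Coding transcripts made up nearly all of SLC12A2, SLC12A7, OXSR1 and STK39, but 16.2% to 45.6% of SLC12A4.

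Genes around the 8 were taken from 7 lists of 75 genes in all, of which 51 were tested, 4 called higher and 4 lower (15.7% of those tested, against 7.75% of all tested genes). Of the other SLC12 and WNK family genes, 3 of 7 were tested and 0 were called with edgeR's test or with DESeq2, while 1, WNK2, had an unadjusted P under 0.05. SLC12A8 (log2 fold change 0.05, edgeR adjusted P = 0.714) and WNK2 (0.20, edgeR adjusted P = 0.233) were the most abundant, and the renal cotransporters SLC12A1 and SLC12A3 and the neuronal SLC12A5 had at most 2, 8 and 1 reads in any library. Among 15 tested regulators and partners of WNK, SPAK and OSR1, KLHL2, a substrate adaptor of CUL3 for WNK kinases, rose from 50.4 ± 1.04 to 56.7 ± 1.37 CPM (SD, n = 3 each, log2 fold change 0.17, edgeR adjusted P = 0.026). CAB39L, which encodes an MO25 scaffold that activates SPAK and OSR1, fell from 19.2 ± 1.07 to 16.5 ± 0.964 CPM (SD, n = 3 each, -0.22, edgeR adjusted P = 0.0941). The other 13 were not called, among them CUL3 (0.03) and CAB39 (0.09).

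Of 6 tested sodium pump and FXYD subunits, which keep up the sodium gradient that NKCC1 uses, ATP1B3 (log2 fold change 0.20, edgeR adjusted P = 0.00871) and FXYD5 (0.17, edgeR adjusted P = 0.00866) rose, and the list median was 0.18. Of 8 tested epithelial chloride and potassium channels 2 fell. SCNN1A, a subunit of the epithelial sodium channel kept in this list, fell from 171 ± 5.12 to 143 ± 3.08 CPM (SD, n = 3 each, -0.27, edgeR adjusted P = 7.03e-05). CFTR, the apical chloride channel that NKCC1 supplies, fell from 34.5 ± 3.28 to 28.9 ± 1.88 CPM (SD, n = 3 each, -0.26, edgeR adjusted P = 0.0549). The list median was -0.13.

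Among 8 tested anion and proton exchangers, SLC9A2, a sodium-proton exchanger of epithelia, fell from 42.8 ± 0.651 to 33.6 ± 1.87 CPM (SD, n = 3 each, -0.35, edgeR adjusted P = 0.000954). SLC4A2, an anion exchanger, rose from 223 ± 6.36 to 238 ± 4.64 CPM (SD, n = 3 each, 0.09, edgeR adjusted P = 0.079). None of the 5 volume-regulated anion channel subunits was called (edgeR), with LRRC8D at -0.04 and LRRC8A at 0.09. Of 7 tested osmotic response genes 0 were called (edgeR), with SLC38A2 at -0.02 and SLC6A6 at 0.01 as the most abundant. At an unadjusted P under 0.05 there was 1 gene in the first of these lists and 0 in the second, and DESeq2 called 0 in both. That gene was LRRC8E, with 9.99 ± 0.467 CPM in shARMC5 and 8.02 ± 0.883 CPM in shNT cells (SD, n = 3 each), without overlap (0.31, SE 0.10, edgeR adjusted P = 0.107).

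Not all of these calls held when settings changed. SLC9A2 and ATP1B3 were called in each of the 16 and 17 alternatives that gave them a value. SCNN1A and FXYD5 each lost the call in 2 of 17, among them edgeR with the length offset (adjusted P = 0.347 for SCNN1A and 0.177 for FXYD5). CFTR lost it in 8, among them the fits without shARMC5 replicate 2 (0.218), shARMC5 replicate 3 (0.113), shNT replicate 1 (0.193) or shNT replicate 3 (0.208). CAB39L lost it in 10, among them those without shARMC5 replicate 1 (0.192), shARMC5 replicate 2 (0.310), shNT replicate 1 (0.309) or shNT replicate 3 (0.214). KLHL2 lost it in 3, among them the fit without shARMC5 replicate 2 (0.139). SLC4A2 lost it in 9, among them every fit without 1 library (edgeR adjusted P from 0.106 to 0.229), but with the length offset its log2 fold change was larger, 0.25, and it was called (edgeR adjusted P = 0.0188). With that offset in edgeR, SLC4A2, ATP1B3 and SLC9A2 were called again and the other 5 of the 8 calls were lost. The regulators and the channels had no call under it.

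**Figure D5:**
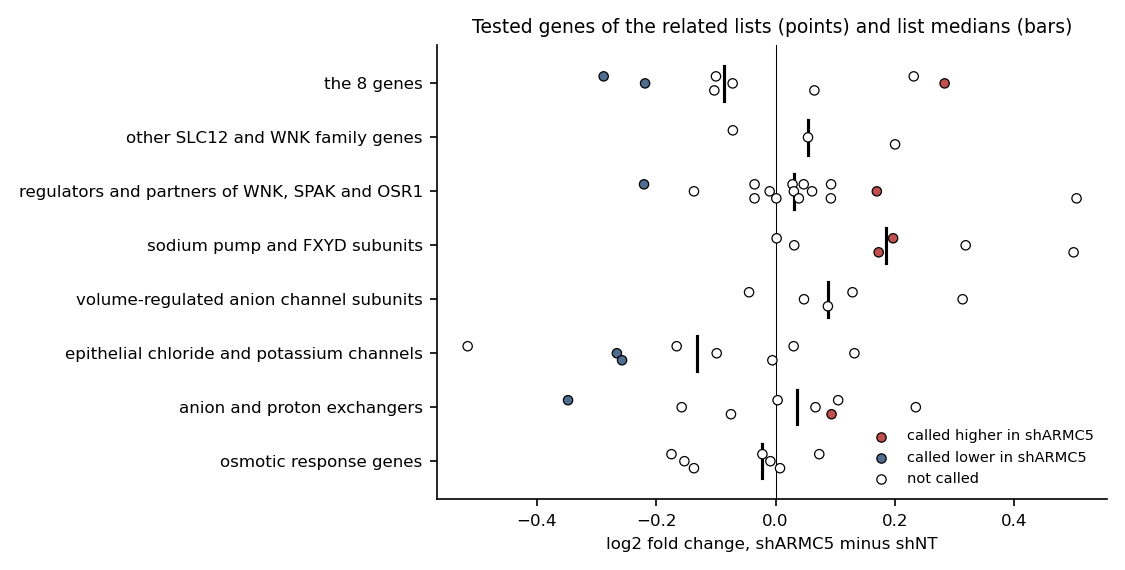
Log2 fold changes, shARMC5 minus shNT, of the 8 genes and of the tested genes of 7 related lists, with red for called higher, blue for called lower, white for not called and a bar for the median of each list. Called genes lie on both sides of 0, at 4 higher and 4 lower among the related genes.

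Genes whose profile over the 6 libraries was most like that of each called gene were sought among the 10368 genes whose mean was 5 CPM or more, by the root mean square difference of centred log2 CPM. For SLC12A2 they included ERBB3 and FZD5, both at 0.0328. For SLC12A7 they were EIF2AK1, SLC2A10 and ASCL2, at 0.0171, 0.0215 and 0.0249. For SLC12A4 they were CCDC68, ITGB5 and ANXA6, at 0.0280, 0.0309 and 0.0330. All these genes share the 6 libraries and their depth, and the likeness is a description.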

How the data were processed

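RNA-seq of 3 shARMC5 and 3 shNT libraries was analysed, grouped by the treatment label. Reads were trimmed by the authors (cutadapt 4.2) and assigned to transcripts by salmon 1.9.0 with GC bias correction. Per transcript, the deposited values are salmon's estimated count of reads, not normalized, and TPM, which the authors' tool scales by effective length and total, beside the length and effective length. The transcript set is not given in the sources used here. Identifiers were matched without version to GENCODE 44 (GRCh38), which placed 165533 of 177456 transcripts in 35810 genes. The unmatched transcripts held 2.96% to 3.04% of reads and were left out.

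Gene totals of estimated counts were rounded. The 13737 genes that reached 10 counts in 3 or more libraries were tested with edgeR 4.0.16 (R 4.3.3), using TMM factors (0.992 to 1.02), the robust quasi-likelihood F test, condition as the only term and Benjamini-Hochberg adjustment over all genes, with an adjusted P under 0.1 as the threshold of a call. Transcripts were tested in the same way. The common biological coefficient of variation was 0.0643. Ratios and exon shares were compared with exact permutation tests, two-sided (scipy 1.17.1). With 3 against 3 their smallest P is 0.1. Exon shares were of TPM. Tables and plots used pandas 2.3.3, numpy 2.4.6 and matplotlib 3.10.9. The fit was tested on simulated data.

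The genes, lists and tests were chosen with earlier results of these data known. Named are ARMC5, the 8 genes, every called gene of a list (the 2 most abundant where none was called), transcripts with at least 10% of a gene's TPM, and the 3 genes nearest in profile to each called gene, of which 1 is not reported here. EPCAM, CDH1, CDX2, CUL3, CAB39, LRRC8E, SLC12A1, SLC12A3, SLC12A5, ENST00000540885, ENST00000540360 and overlapping genes were named after their values were seen. Counting error limits genes with few reads.

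The alternatives were DESeq2's size factors or library size alone in edgeR, an average transcript length offset in edgeR, DESeq2 1.42.0 with or without the offset, at least 1 count or filterByExpr as the filter, a replicate block, each library left out, an adjusted P under 0.05, unmatched transcripts added to the gene listed before them, only transcripts of the same version and length, and CPM per length for the ratios. The alternatives for exon shares (each library left out, reads in place of TPM) were chosen after seeing the data. Promoter sequences are from RefSeq (GRCh38.p14).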

Additional observations from a re-analysis of the deposited data

How the results depend on the processing

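SLC12A2 was called in each of the 17 alternatives, with log2 fold changes from -0.33 to -0.25 and a largest adjusted P of 0.0141 (edgeR or DESeq2), and SLC12A7 in each, from -0.27 to -0.21 with a largest adjusted P of 0.0915. SLC12A4 stayed positive, from 0.21 to 0.33, and was lost with the edgeR length offset and with strict matching of transcripts. WNK1 changed sign with the edgeR length offset (0.000553, adjusted P = 0.997), and the cause was not tested. Of the 8 genes 2 to 4 were called, 3 with each library left out. Scaled by library size alone, 460 calls were higher and 495 lower, so 48.2% of calls were higher, against 57.3% with TMM. Over all genes the count of 1064 calls moved to 234 with the edgeR length offset, 568 with that offset in DESeq2, 339 with only transcripts of the same version and length, where fewer reads are counted, and 676 at an adjusted P under 0.05. With a library left out it lay between 536 and 1085, with 536 without shNT replicate 1, 600 without shARMC5 replicate 2 and 694 without shNT replicate 3. With strict matching CFTR was at -1.03 on the log2 scale (SE 0.75). The log2 difference of the ratio of SLC12A2 to SLC12A4 and SLC12A7 stayed between -0.30 and -0.17 and that of STK39 to OXSR1 between -0.20 and -0.15. The difference in the share of the WNK1 exon of 1239 bases, in percentage points, ran from -0.31 to 0.46 with a library left out.

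Replicates of the same number did not deviate together (correlations -0.102, -0.166 and 0.0656). The labels do not say whether libraries of the same number were prepared together, and so few correlations cannot settle it. With the replicate block 1766 genes were called, against 1064 without it, and WNK1 was called as well (log2 fold change -0.07, edgeR adjusted P = 0.0943). Each transcript and exon share rests on salmon's division of shared reads, for which no repeat estimates were used here. WNK4 had the fewest reads of the 8 genes, 26 to 47 per library.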

Other observations

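An unmatched transcript of 653 bases, listed directly after those of WNK1, held 111 to 164 reads per library and is not part of the values of WNK1.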
